A study of Daphnia magna with 230 samples.

Results

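Neonates of Daphnia magna, a freshwater crustacean widely used in toxicity testing, were exposed for 96 h to stormwater that had been collected in spring (April) or in late summer (September), and gene expression was compared between these 2 seasons. The comparison holds every stormwater library with a spring or a late summer label from the 9 sampling points, 95 of the 230 libraries of the series, with laboratory controls left out. Of these, 45 came from spring water and 50 from late summer water, and each was made from a pool of 5 neonates. The points are 3 pipe outflows of untreated stormwater (PIPE-Crystal-Lake, PIPE-Cedar-Lake and PIPE-SAP) and the inflow and outfall of 3 iron-enhanced sand filters (BMP-37ST, BMP-TBNS1 and BMP-TBNS2), which remove phosphate from runoff. Each point has 5 libraries of each season, except PIPE-SAP, which has 2 sets of 5 labelled late summer.

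All animals were younger than 24 h at the start, came from Carolina Biological Supply and received no pyriproxyfen, the insecticide used elsewhere in the series. The 5 libraries of a point and season came from 1 exposure to 1 water sample, so differences between them measure the spread between pools, and the 9 points stand in for replicate waters. Laboratory controls kept in well water of St. Cloud State University carry the same season labels, 6 for spring and 10 for late summer in 2 sets, and saw no stormwater. The numbers at the end of the library titles run from 1 to 51 for spring stormwater and controls and are all higher for late summer stormwater and controls. All stormwater exposures were run in January per the study, so the season is that of the water collected. The season of the water and the run of library numbers cannot be told apart in stormwater alone. Controls are given for the DEGs shared by most points as a set, and singly for only some transcripts and groups. One library, F7Y, has a late summer title and a library code of the early summer form, and was left out. Counted as late summer, it gave 310 DEGs in place of 313.

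Neonates of this age grow and moult several times within days, and their transcripts for cuticle, digestion and storage rise and fall with the moult cycle. Daphnia take up oxygen partly with multidomain hemoglobins that are secreted into the hemolymph and are made in larger amounts when oxygen is low. Their gut carries a large set of serine proteases, which protease inhibitors such as the Kunitz-type proteins block, and clip-domain serine proteases act in the immune cascades of the hemolymph. Transporters of the ATP-binding cassette (ABC) families export lipids, toxicants and other compounds from cells. Expression in whole pooled animals cannot separate fewer cells of a type from less RNA per cell, which holds for each change described here.

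Library totals lay between 5040650 and 12522461 estimated counts in spring stormwater (median 10750689), between 7252524 and 12708464 in late summer stormwater (median 9860182) and between 9502139 and 11312024 in the controls. Levels are given as CPM, the count scaled to a library total of 1000000, and a floor of 3 counts corresponded to between 0.236 and 0.595 CPM. Fold changes are late summer over spring on the log2 scale from edgeR's quasi-likelihood test with sampling point as covariate, with their standard error (SE) and Benjamini-Hochberg adjusted p. Transcripts with an adjusted p under 0.05 whose log2 fold change exceeded 2 in size are called differentially expressed genes (DEGs).

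Each of the 10 largest falls described here had a late summer median under 1 CPM, against spring medians between 1.19 and 446 CPM. They included an uncharacterized protein and 3 Kunitz-type protease inhibitors, and an fk506 binding protein and an ABC subfamily B transporter fell as well. A smaller set of large changes was higher in late summer, with an ABC subfamily G transporter, a complement C1q-like protein, an actin and a neutral amino acid transporter among its named members. Of 26153 transcripts tested, 313 (1.2%) were DEGs, 223 (0.853%) lower and 90 (0.344%) higher in late summer. At an adjusted p under 0.05 without a limit on the fold change (edgeR), 3876 (14.8%) were lower and 3766 (14.4%) higher, and the median log2 fold change of all transcripts was -0.01.

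Many of these DEGs did not reach the size set here for a change at single points. A DEG was counted as seen at a point where the difference of the mean log2(CPM + 1) had the sign of the fold change and a size over 1. By this count, 92 DEGs were seen at 7 or more of the 9 points, 20 of them at every point, while 33.9% of the DEGs were seen at none. All of the latter averaged under 1 CPM (median 0.138), a level at which a difference over 1 in log2(CPM + 1) is hard to reach. Their count therefore does not show that the points differed. With a filter on low counts 93 transcripts were lower and 28 higher. The 92 shared DEGs comprised 68 lower and 24 higher in late summer, where 0.57% of all 26153 transcripts had a difference over 1 in 1 direction at 7 or more points. A name was available for 47 of them, which reads uncharacterized or conserved protein in 28 cases. With a pseudocount of 0.1 CPM, 171 DEGs were seen at 7 or more points.

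**Figure D1:**
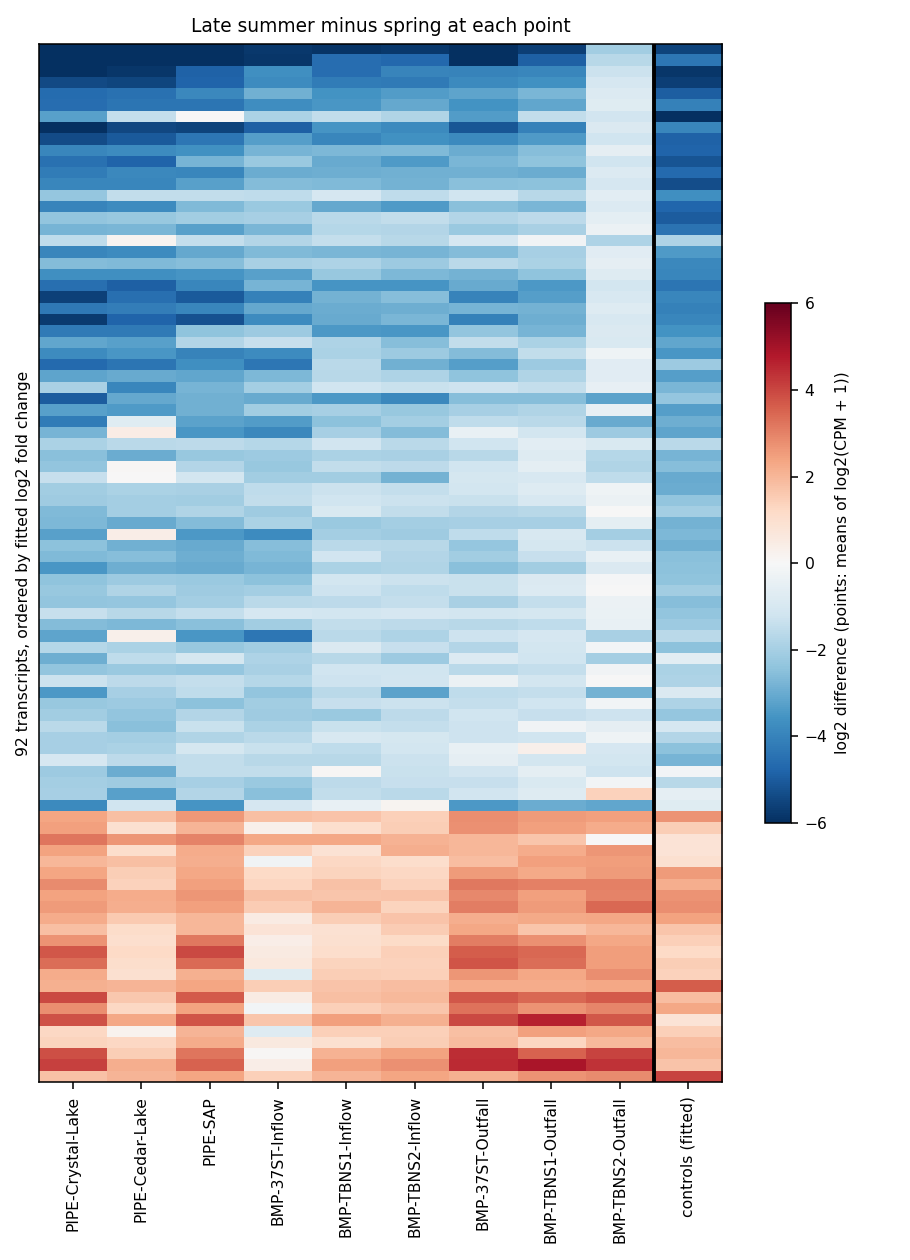
Difference between late summer and spring at each sampling point for the 92 DEGs seen at 7 or more of the 9 points. Each row is a transcript, ordered by fitted log2 fold change; the columns of the points show differences of mean log2(CPM + 1), and the last column shows the fitted log2 fold change in the laboratory controls. Of the 68 rows that fell, few are pale at the 3 pipe points, whereas many are pale at BMP-TBNS2-Outfall, and the rises are palest at BMP-37ST-Inflow.

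The largest fall was that of Dapma7bEVm005116, an uncharacterized protein. In spring its level was 446 CPM by the median (0.515 to 1845), and 39 of 45 libraries exceeded 10 CPM. In late summer the median was 0.94 CPM (0 to 968), and 6 of 50 libraries exceeded 10 CPM. The log2 fold change was -7.36 ± 0.82 (SE; edgeR, adjusted p = 6e-12), or 164-fold by the fit. With counts summed per water sample it was -7.45 (edgeR, adjusted p = 0.0018), and a fit without the sampling point gave -4.26. By point, the spring medians lay between 84.3 CPM at BMP-TBNS2-Outfall and 1222 CPM at BMP-TBNS2-Inflow, and each late summer median of a point or set lay between 0.472 and 1.55 CPM. The seasons did not overlap at PIPE-Crystal-Lake, PIPE-SAP and BMP-37ST-Outfall.

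The exceptions within a season were whole pools. The spring libraries of Dapma7bEVm005116 under 10 CPM were replicate 2 of BMP-37ST-Inflow, replicate 5 of BMP-TBNS1-Inflow, replicate 4 of BMP-TBNS2-Inflow, replicate 4 of PIPE-Cedar-Lake and replicates 4 and 5 of BMP-TBNS2-Outfall. The late summer libraries over 10 CPM all came from the TBNS filters, and the highest were replicate 4 of BMP-TBNS1-Outfall (968 CPM) and replicate 5 of BMP-TBNS2-Inflow (401 CPM). For 27 of the 68 falls, this transcript included, those same 6 spring libraries were the 6 lowest of the season, and a further 15 shared 5 of them. In late summer 3 of the 68 falls shared all 6 high libraries, and 27 shared 5. Much of the set was thus high or low together in a pool, and pools of 1 exposure fell on either side. In the 6 spring controls the transcript ranged from 0.274 to 2271 CPM (median 26.7) and in the 10 late summer controls from 0 to 56.5 CPM (median 1.08), so levels over 10 CPM also occurred without stormwater.

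**Figure D2:**
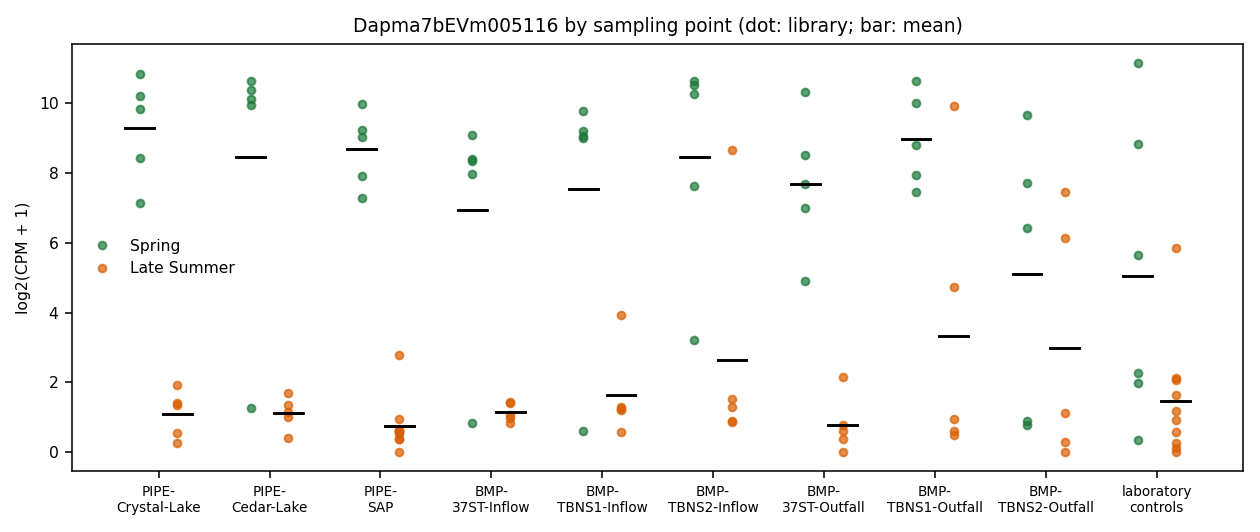
Level of Dapma7bEVm005116 in each library as log2(CPM + 1), by sampling point and for the laboratory controls; dots are libraries, bars are means, green is spring and orange late summer. Spring libraries sit high at every point apart from 6 libraries under 10 CPM, and late summer libraries sit near 1 CPM apart from 6 at the TBNS filters.

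Protease inhibitors of the Kunitz type, small proteins that block serine proteases, gave 3 of the 10 largest falls. Dapma7bEVm003446 had a median of 359 CPM in spring (0.18 to 1002) and of 0.98 CPM in late summer (0 to 557), with a log2 fold change of -6.17 ± 0.80 (edgeR, adjusted p = 1.1e-09), and of -3.94 without the sampling point. Dapma7bEVm028016 had a median of 42.0 CPM in spring (0 to 228) and of 0.312 CPM in late summer (0 to 96.6), with a log2 fold change of -6.16 ± 0.61 (edgeR, adjusted p = 7.2e-14). The third, Dapma7bEVm027813, was low even in spring, at 1.19 CPM (0 to 74.0), and its late summer median was 0 (0 to 50.9), with a log2 fold change of -5.36 ± 0.91 (edgeR, adjusted p = 2.2e-06). All 3 ranges overlapped between the seasons. In the controls, Dapma7bEVm003446 had medians of 29.4 CPM in spring (0.639 to 853) and 1.03 CPM in late summer (0.409 to 57.2), and Dapma7bEVm028016 of 2.79 CPM (0 to 304) and 0.441 CPM (0.0898 to 4.97). Dapma7bEVm027813 was at 13.7 CPM in spring control replicate 3 and at 0 in the other 5 spring controls and in all 10 late summer controls, so its control difference rests on 1 library.

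Uncharacterized and conserved proteins made up the rest of the 10 largest falls, with log2 fold changes from -5.82 ± 0.56 for Dapma7bEVm015212 to -5.18 ± 0.65 for Dapma7bEVm028729. The highest of them in spring was Dapma7bEVm005791, at a median of 90.6 CPM (0 to 263) against 0.401 CPM (0 to 164) in late summer. Dapma7bEVm015212 went from 40.4 CPM (0.189 to 179) to 0.454 CPM (0 to 94.3), and Dapma7bEVm008141 from 39.2 CPM (0.36 to 174) to 0.609 CPM (0.0905 to 91.1). Dapma7bEVm007717, Dapma7bEVm012998 and Dapma7bEVm028729 had spring medians of 25, 15.4 and 12.8 CPM and late summer medians of 0.15, 0.0421 and 0 CPM. Each of these ranges overlapped between the seasons, since some spring pools were as low as the late summer pools and some late summer pools reached spring levels.

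Among the falls with a functional name, the fk506 binding protein Dapma7bEVm015479, of the family of peptidyl-prolyl isomerases that help proteins fold, fell with a narrow error. Its median was 42.7 CPM in spring (1.64 to 226) and 2.26 CPM in late summer (0.855 to 104.1), with a log2 fold change of -4.31 ± 0.37 (edgeR, adjusted p = 6.6e-17). The ABC subfamily B transporter Dapma7bEVm015729 fell from 4.79 CPM (0 to 19.5) to 0.0955 CPM (0 to 8.99), with a log2 fold change of -4.38 ± 0.46 (edgeR, adjusted p = 4.7e-13). The same pools carried both changes in part. Of the 6 spring libraries low in Dapma7bEVm005116, 6 were also the lowest for the transporter and 5 for the fk506 binding protein.

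Smaller or rarer transcripts with a name fell as well. The methyltransferase Dapma7bEVm012946 went from 3.77 CPM (0 to 10.3) to 0 CPM (0 to 5.07) by the medians, with a log2 fold change of -4.68 ± 0.50. The ankyrin repeat protein Dapma7bEVm011708 went from 9.74 CPM (0.0858 to 25.3) to 0.31 CPM (0 to 13.9), with -3.92 ± 0.43. Alpha1,3fucosyltransferase Dapma7bEVm016232, which adds fucose to sugar chains, went from 3.57 CPM (0.172 to 9.68) to 0.28 CPM (0 to 5.55), with -3.09 ± 0.30. These had adjusted p-values of 1.5e-12, 4.4e-12 and 1.7e-14 (edgeR), which measure the spread between pools. With counts summed per water sample the adjusted p-values were 0.0017, 0.0014 and 5.4e-04 (edgeR). The clip-domain serine protease Dapma7bEVm023202 differed in that most of its libraries were near or under the floor, with medians of 0.931 CPM (0 to 32.4) and 0 CPM (0 to 10.3), and only 2 of the 6 low spring libraries of Dapma7bEVm005116 were among its lowest. The homolog of APOBEC1 complementation factor, an RNA-binding protein of mammalian RNA editing, fell from 4.92 CPM (0 to 23) to 0.674 CPM (0 to 7.56) (Dapma7bEVm012279, -3.02 ± 0.35).

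The di-domain hemoglobin precursor Dapma7bEVm015299, of the oxygen carriers of the hemolymph, was the most abundant of the falls and the one nearest to the threshold on the fold change. It had a median of 481 CPM in spring (7.36 to 4300) and of 114.1 CPM in late summer (0.279 to 962). The log2 fold change was -2.01 ± 0.43 (edgeR, adjusted p = 1e-04), and it was seen at 7 of the 9 points. By the medians of the points it was lower in late summer at all 9, from a small step at BMP-TBNS2-Inflow (493 to 425 CPM) to a wide one at PIPE-Crystal-Lake (1168 to 38.7 CPM). The difference of mean log2(CPM + 1) was 0.18 at BMP-TBNS2-Inflow, where late summer was higher by this measure, and the fitted log2 fold change at BMP-TBNS1-Inflow was -0.0062. At PIPE-SAP the median was 467 CPM in spring, and 10.3 and 116.2 CPM in the first and second late summer sets. In the controls the level was lower in both seasons, at 28.3 CPM in spring (2.62 to 157.7) and 24.6 CPM in late summer (0.102 to 109.9), with a log2 fold change of -0.72 ± 1.00 (edgeR, adjusted p = 0.76). The difference between the season changes in stormwater and in controls did not pass the test, and leaving out replicate 5 or PIPE-Crystal-Lake gave log2 fold changes of -1.77 and -1.75 in stormwater.

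The 24 rises were mostly transcripts without a name (19 of 24), and the largest were rare. Dapma7bEVm027084 was at 0 in 41 of 45 spring libraries and reached 3.40 CPM in the others. In late summer it exceeded 1 CPM in 47 of 50 libraries, with a median of 4.60 CPM (0 to 10.9), and 2 libraries were at 0. The log2 fold change was 5.22 ± 0.41 (edgeR, adjusted p = 1.3e-18), and the seasons did not overlap at 6 of the 9 points. In the controls it was at 0 by the median in spring (0 to 1.33) and at 5.52 CPM in late summer (1.23 to 8.84), a log2 fold change of 4.07 ± 0.96 (edgeR, adjusted p = 0.049).

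Most other large rises varied widely within each season. Dapma7bEVm004697 had medians of 0.58 CPM in spring (0 to 41.6) and 29.2 CPM in late summer (0 to 213), with a log2 fold change of 4.63 ± 0.56, and Dapma7bEVm015315 of 0.276 CPM (0 to 45.7) and 15.2 CPM (0 to 257), with 4.30 ± 0.62. Dapma7bEVm001926, the most abundant of the 10 largest rises, had medians of 20.8 CPM (2.58 to 373) and 181 CPM (7.95 to 3533), with 3.08 ± 0.40. These 3 changes had adjusted p-values of 1.2e-10, 2.7e-08 and 1e-09 (edgeR). Dapma7bEVm009431 was tighter, at 0.63 CPM in spring (0 to 2.79) and 5.90 CPM in late summer (1.43 to 16.1), with a log2 fold change of 2.84 ± 0.21 (edgeR, adjusted p = 1.9e-20). Dapma7bEVm011738, Dapma7bEVm007556, Dapma7bEVm028965 and Dapma7bEVm009616 rose by 3.71, 3.58, 3.42 and 2.76 on the log2 scale from spring medians between 0 and 0.539 CPM. Their late summer medians were 3.86, 2.12, 6.38 and 5.22 CPM, and each was at 0 in at least 1 library of late summer.

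The ABC subfamily G member 5 Dapma7bEVm027855, of a family that in mammals exports sterols, was the largest rise with a functional name. Its median was 1.67 CPM in spring (0.107 to 260) and 37.3 CPM in late summer (0.619 to 508), with a log2 fold change of 3.43 ± 0.55 (edgeR, adjusted p = 4e-07). More than 10 CPM were reached in 6 of 45 spring and 38 of 50 late summer libraries, and the late summer median was higher at each of the 9 points, from 18 against 2.02 CPM at BMP-TBNS2-Inflow to 91.8 against 0.64 CPM in the first set of PIPE-SAP. No point was free of overlap between the seasons. In the controls the medians were 3.82 CPM in spring (0.81 to 132.8) and 78.2 CPM in late summer (1.01 to 204), with a log2 fold change of 0.84 ± 1.17 (edgeR, adjusted p = 0.76).

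The remaining named rises were milder. The complement C1q protein 4 homolog Dapma7bEVm010318, whose mammalian relatives bind microbes and dying cells, went from 16.6 CPM (2.38 to 90.8) to 68.1 CPM (5.00 to 427), with a log2 fold change of 2.12 ± 0.24 (edgeR, adjusted p = 8.6e-12). Actin-87e Dapma7bEVm018150, a component of muscle and the cytoskeleton, went from 1.91 CPM (0 to 9.74) to 10.9 CPM (0.357 to 106.9), with 2.14 ± 0.30 (edgeR, adjusted p = 6.2e-09). Each had spring libraries within the late summer range. The sodium-coupled neutral amino acid transporter Dapma7bEVm003672, which imports glutamine and similar amino acids, was at a median of 0 CPM in spring (0 to 13.4) and 10.6 CPM in late summer (0 to 17.1), with 2.04 ± 0.46 (edgeR, adjusted p = 2.7e-04). The spring controls stood between these values for the transporter, at 4.30 CPM (0.395 to 10.05), and the late summer controls at 12.6 CPM (4.42 to 14.9).

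**Figure D3:**
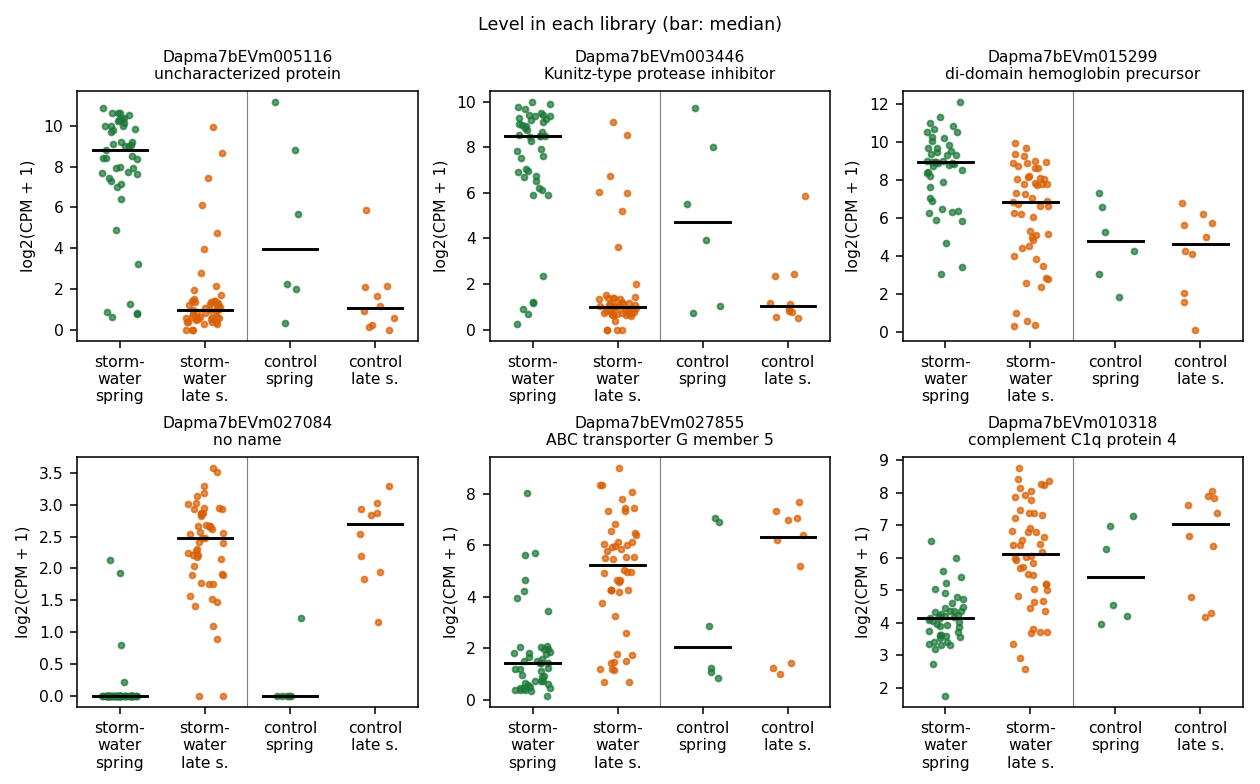
Level of 6 of the 92 transcripts in each library as log2(CPM + 1), in stormwater and in laboratory controls of each season; points are libraries (45, 50, 6 and 10) and bars are medians. Dapma7bEVm005116 and Dapma7bEVm003446 fell from medians of 446 and 359 CPM to 0.94 and 0.98 CPM with a few pools on the other side, the hemoglobin shifted with wide overlap, and Dapma7bEVm027084 was at 0 in 41 of 45 spring libraries.

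A few unnamed transcripts, chosen after their values were seen, came closest to separating the seasons library by library. Dapma7bEVm015650 had 20.6 CPM by the median in spring (7.34 to 43.8) and 89.9 CPM in late summer (43.1 to 188), did not overlap at any of the 9 points, and had a log2 fold change of 2.01 ± 0.10 (edgeR, adjusted p = 1.5e-30). Dapma7bEVm027046 went from 7.15 CPM (1.79 to 22.1) to 39.6 CPM (13.6 at the lowest), and Dapma7bEVm017280 from 7.26 CPM (3.03 to 26.1) to 47.4 CPM (13.6 to 178). In the other direction, Dapma7bEVm026646 went from 16.9 CPM (11.8 to 66.1) to 4.71 CPM (1.57 to 24), with a log2 fold change of -2.22 ± 0.19. No transcript separated all 45 spring from all 50 late summer libraries (0 of 26153, 0%).

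The laboratory controls answer whether the same transcripts differed by season label in animals that saw no stormwater. All 92 shared DEGs differed in the same direction in the controls, where 68.3% of all transcripts in both fits did. Of the 68 falls, 63 were lower by more than 1 on the log2 scale in the late summer controls, and 20 of the 24 rises were higher by more than 1, against 13.2% of all transcripts. The median control log2 fold change was -2.85 over the falls, with Dapma7bEVm027813 at its bound too, and 1.78 over the rises, where the stormwater medians were -3.45 and 2.50. The 92 were chosen for the size of their change in stormwater and not in controls. Their larger stormwater medians are therefore no measure of an excess over the controls. Kunitz-type Dapma7bEVm028016, the fk506 binding protein Dapma7bEVm015479 and the methyltransferase Dapma7bEVm012946 changed in the controls by -5.85, -4.39 and -4.98 (edgeR, adjusted p of 0.051, 0.031 and 0.049).

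With 16 control libraries few single transcripts passed the test. Of the 92, 15 had an adjusted p under 0.05 in the controls (9 falls and 6 rises, edgeR), against 317 of 25395 transcripts (1.25%), and 0.429% of all transcripts (29 higher, 80 lower) were DEGs there. The 15 became 6 with the first late summer set alone, 50 with DESeq2 and between 7 (without spring replicate 2 or 3, among others) and 26 (without spring replicate 6) when 1 control library was left out. The sign held for at least 90 transcripts in each of these fits. The 6 spring and 10 late summer controls did not overlap for 7 of the 92, against 0.96% of all transcripts. They were the rises Dapma7bEVm015650, Dapma7bEVm015664, Dapma7bEVm027046, Dapma7bEVm017280 and Dapma7bEVm009431 and the falls Dapma7bEVm026646 and Dapma7bEVm020499. Among them Dapma7bEVm015650 had a control log2 fold change of 2.68 (edgeR, adjusted p = 7.9e-06) and Dapma7bEVm026646 of -2.33 (edgeR, adjusted p = 1.8e-04).

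The difference between the season change in stormwater and that in controls was tested by an interaction over both kinds of library. No transcript of 26191 had an adjusted p under 0.05 (edgeR, lowest 0.212), and DESeq2 gave 0 of 26085 as well. At an unadjusted p under 0.05 there were 1690 (6.45%) with edgeR and 1483 with DESeq2. With edgeR the share among the 92 was no larger than that over all transcripts, with 1 fall and 4 rises. These were Dapma7bEVm010313, which has no name, the ABC transporter Dapma7bEVm027855, the C1q homolog Dapma7bEVm010318, Dapma7bEVm004697 and Dapma7bEVm015650. By the fit, the ABC transporter rose by 2.60 ± 1.23 more on the log2 scale in stormwater than in controls and the C1q homolog by 1.30 ± 0.62 more (edgeR, adjusted p of 0.745 and 0.747). Dapma7bEVm015650 rose by less (-0.67 ± 0.26, edgeR, adjusted p = 0.668). By the medians, the ABC transporter rose from 1.67 to 37.3 CPM in stormwater and, about alike, from 3.82 to 78.2 CPM in controls. Dapma7bEVm004697 rose from 0.58 to 29.2 CPM and from 1.08 to 70.4 CPM, and the C1q homolog from 16.6 to 68.1 CPM and from 48.7 to 132.6 CPM. The median SE of the fitted difference between stormwater and controls was 1.05 over the falls and 0.855 over the rises. A difference of 1 on the log2 scale thus lay within 1 SE for a typical fall. For these transcripts, the season of the stormwater and the run of library numbers cannot be told apart.

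**Figure D4:**
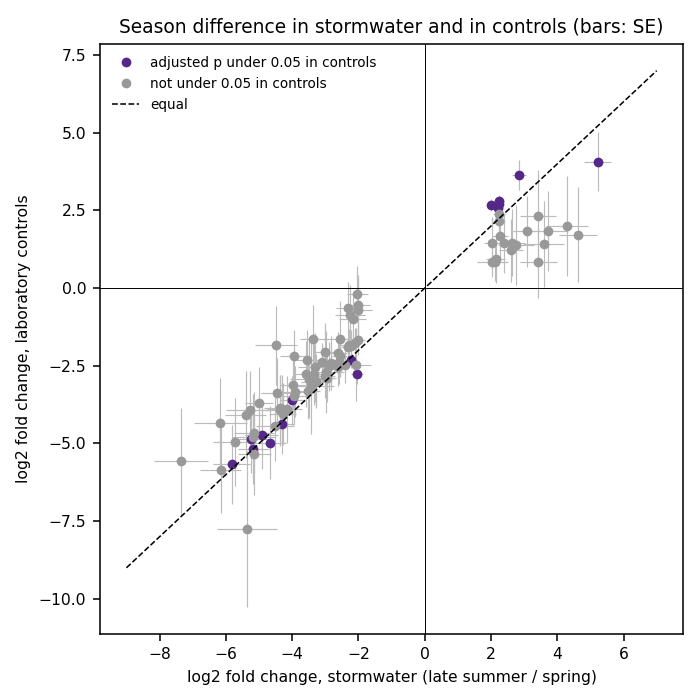
Log2 fold change of late summer over spring in stormwater (x axis) and in laboratory controls (y axis) for the 92 shared DEGs, with bars of 1 SE; purple points had an adjusted p under 0.05 in the controls (15 transcripts), grey points did not, and the dashed line marks equal change. All points lie in the quadrants of equal sign, falls on both sides of the line and several rises below it.

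By sampling point, the number of DEGs between the seasons ran from 2 at BMP-TBNS2-Inflow to 1019 at PIPE-SAP, which has 10 late summer libraries where the others have 5. The pipe outflows fell more than they rose, with 863 of 1019 lower at PIPE-SAP (3.9%), 385 of 439 at PIPE-Crystal-Lake (1.68%) and 191 of 214 at PIPE-Cedar-Lake (0.818%). At BMP-TBNS2-Outfall 51 were lower and 176 higher (0.868%), at BMP-TBNS1-Outfall 15 and 42 (0.218%), and at BMP-37ST-Outfall 58 and 66 (0.474%). The filter inflows gave the fewest, 46 lower and 7 higher at BMP-37ST-Inflow (0.203%), 11 and 4 at BMP-TBNS1-Inflow (0.0574%) and 0 and 2 at BMP-TBNS2-Inflow (0.00765%). When the libraries of 1 replicate number were left out they ranged from 435 (without number 3) to 991 at PIPE-SAP, from 40 (without number 2) to 288 at BMP-TBNS2-Outfall, from 0 (without number 1) to 73 at BMP-37ST-Inflow and from 0 to 63 (without number 5) at BMP-TBNS2-Inflow.

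**Figure D5:**
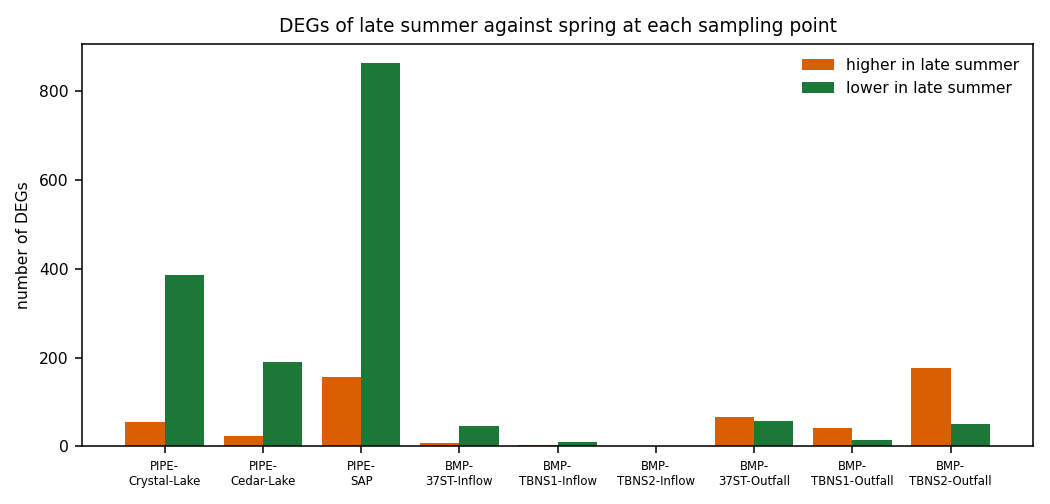
Number of DEGs of late summer against spring at each sampling point, with orange bars for transcripts higher and green bars for transcripts lower in late summer; the y axis starts at 0. PIPE-SAP, with 10 late summer libraries against 5 elsewhere, has the most (863 of 1019 lower), and BMP-TBNS2-Inflow the fewest (2 higher).

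The 92 shared DEGs varied in size among the points. The median fitted log2 fold change of the 68 falls ran from -1.58 at BMP-TBNS1-Outfall to -5.40 at PIPE-Crystal-Lake, and that of the 24 rises from 0.91 at BMP-37ST-Inflow to 3.58 at PIPE-SAP. By the difference of mean log2(CPM + 1), the measure by which the 92 were chosen, all 92 passed a size of 1 in the shared direction at PIPE-Crystal-Lake, 91 at PIPE-SAP and at BMP-TBNS2-Inflow, and 87 at BMP-37ST-Outfall. The lowest count was 49 at BMP-TBNS2-Outfall, where the median difference of the falls was -0.83, against -2.86 at PIPE-Crystal-Lake. The rises were weakest at BMP-37ST-Inflow, with a median difference of 0.59 against 2.76 at BMP-37ST-Outfall. Dapma7bEVm004697 shows this contrast, with late summer against spring medians of 1.61 and 1.19 CPM at BMP-37ST-Inflow and of 57.1 and 0.189 CPM at BMP-37ST-Outfall.

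Whether the season difference depended on the kind of point was tested by an F-test across pipe, inflow and outfall. It gave 271 of 26153 transcripts (1.04%) at an adjusted p under 0.05 (edgeR), among them 16 of the 92, including Dapma7bEVm005116, Kunitz-type Dapma7bEVm003446 and Dapma7bEVm028016 and the fucosyltransferase Dapma7bEVm016232 (adjusted p of 0.0322, 0.0319, 0.0287 and 0.0425). This call changed when the libraries of 1 replicate number were left out at every point. Without number 3 there was 1 transcript and none of the 92, without number 1 there were 36 and none of the 92, and without number 2 there were 65 and 1 of the 92, against 674 and 537 without numbers 4 and 5. Averaged over the points of a kind, the season DEGs were 495 lower of 638 in pipe water, 188 of 236 in filter inflows and 196 of 536 in filter outfalls. The 2 late summer sets of PIPE-SAP had no DEGs between them and no transcript with an adjusted p under 0.05 (edgeR; 1981 of 26153 at an unadjusted p under 0.05, no other tool run).

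Transcript groups showed the season difference as shifts smaller than those of the 92. The groups were built from words in the names that the study gives, most of which it gives only for its pyriproxyfen DEGs, so they are not whole families. Some names come from the season model of the study, whose transcripts were chosen on these same libraries. Where a group holds such members, its count is not independent evidence of a season difference. Among 12 protease inhibitors 6 fell and 0 rose at an adjusted p under 0.05 (edgeR), against 14.8% and 14.4% of all transcripts, with a median log2 fold change of -0.68. Of 14 globins and heme proteins 6 fell and 0 rose (median -0.66), which became 10 and 0 with DESeq2 or with the low-count filter. The corresponding control medians were -0.53 and -0.53, without a single member past the test in the controls. In the groups below, the control median had the stormwater sign for cathepsins (-0.62), cuticle proteins (-1.10) and mitosis and DNA repair (-0.70). It also did for lipases, peroxidases, superoxide dismutases, UGT glycosyltransferases, ribosomal proteins, fatty acid synthesis, transposable elements and the season model. It had the opposite sign for immune recognition (0.07), serine proteases (0.02) and chitin metabolism (0.64). The sign was also opposite for ABC transporters, cytochrome P450, moulting and hormones, histones, mitochondrial metabolism and splicing. Collagens, glucose dehydrogenases, carbonic anhydrases, vitellogenin and the clock group were opposite as well.

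Of the digestive enzymes, 50% of the cathepsins, 40% of the lipases and phospholipases and 12.5% of the serine proteases fell, against 14.8% of all transcripts, rare ones included. With the low-count filter 3569 of 16556 transcripts fell, among them 3 cathepsins, 4 lipases and phospholipases and 4 serine proteases. Among 10 cathepsins, the cysteine proteases of lysosomes and the gut, 5 fell and 0 rose (median -1.09). The largest fall there was Dapma7bEVm010073, rare in both seasons with medians of 0.16 CPM (0 to 273) and 0 CPM (0 to 220). Of 15 lipases and phospholipases 6 fell and 0 rose (median -0.72), led by the gastric triacylglycerol lipase homolog Dapma7bEVm005948, which went from 4.51 CPM (0.755 to 15.5) to 1.99 CPM (0.485 to 30.8). Of 48 serine proteases 6 fell and 1 rose (median -0.66), and DESeq2 called 17 and 1. The largest fall was serine protease P76 precursor Dapma7bEVm018448, with -4.72 ± 0.66 from a median of 0.675 CPM (0 to 63.3) to 0 CPM (0 to 6.21), and the rise was Dapma7bEVm010171, with 1.91 ± 0.60.

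Immune and redox groups were mixed. Of 23 immune recognition transcripts 6 fell and 2 rose (median -0.84, 13 and 2 with DESeq2), with the C1q homolog Dapma7bEVm010318 as the largest rise and the class B scavenger receptor Dapma7bEVm005157 as the largest fall (-2.22 ± 0.54). Of 20 peroxidases and dual oxidases 5 fell and 0 rose (median -0.54), led by dual oxidase Dapma7bEVm001260 (-1.30 ± 0.52, edgeR, adjusted p = 0.048). None of 8 superoxide dismutases passed with edgeR (median -0.55), and DESeq2 called 2 lower. Among 14 cytochrome P450 enzymes, which oxidize hormones and toxicants, only Dapma7bEVm007241 passed, with a fall of -1.64 ± 0.47 from 18.5 CPM (0.675 to 306) to 4.57 CPM (0.096 to 114.6). Of 17 ABC transporters 2 rose and 1 fell, and of 12 glycosyltransferases of the UGT family 4 fell, led by Dapma7bEVm019254 (-1.08 ± 0.32).

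Transcripts of growth, moulting and sex determination included some clear single changes. The doublesex- and mab-3-related factor Dapma7bEVm005257, of a family whose member doublesex directs male development in Daphnia, fell from 86.6 CPM (5.49 to 316) to 18.2 CPM (8.11 to 143.5), with -2.20 ± 0.26 (edgeR, adjusted p = 6.5e-11). It was seen at 6 points, its controls had medians of 80.1 CPM in spring (8.86 to 298) and 22.8 CPM in late summer (8.09 to 73.8), and the control log2 fold change was -1.92 ± 0.56 (edgeR, adjusted p = 0.11). IMP-L2 Dapma7bEVm015483, an insulin-binding growth inhibitor in flies, rose from 37.8 CPM (1.01 to 287) to 136.1 CPM (31.9 to 328), with 1.31 ± 0.28 (edgeR, adjusted p = 1.3e-04). Of the 9 moulting and hormone transcripts 3 fell and 1 rose. Of 76 cuticle proteins 2 fell and 1 rose (median -0.38, 10 and 1 with DESeq2), with Dapma7bEVm023299 as the largest fall (-2.18 ± 0.82) and Dapma7bEVm005354 as the rise (1.02 ± 0.39). Of 15 chitin metabolism transcripts 3 fell and 3 rose, among them the chitinase homologs Dapma7bEVm009004 (-1.60 ± 0.39) and Dapma7bEVm016166 (0.87 ± 0.32).

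Some transcripts of cell division fell and some of ribosomal proteins rose in late summer. Of 8 mitosis and DNA repair transcripts 5 fell and 0 rose (median -0.61), led by cyclin-O Dapma7bEVm004796 (-2.12 ± 0.48) and including zwilch. Of 16 measured ribosomal protein transcripts 7 rose and 0 fell (median 0.81), although these were rare forms, as in L19 Dapma7bEVm017781 with medians of 0.422 CPM (0 to 33.0) and 2.70 CPM (0 to 25.7), and the low-count filter left 1 rise. Of 8 measured mitochondrial transcripts 3 fell and 2 rose, with Dapma7bEVm010549, a subunit of NADH dehydrogenase, from 179 CPM (22.4 to 231) to 140 CPM (120 to 203) and ATP6 Dapma7bEVm024574 with 2.06 ± 0.41. Histones and histone demethylases gave 2 falls and 2 rises of 15, with the demethylases Dapma7bEVm010229 (-1.08 ± 0.39) and Dapma7bEVm009611 (1.52 ± 0.24) at the ends. Splicing factors gave 2 rises of 9, among them CWC15 Dapma7bEVm028792 (0.95 ± 0.17). The season model of the study, chosen on these libraries, holds zwilch, Dapma7bEVm010549 and Dapma7bEVm028792. It also holds further transcripts named for mitosis, DNA repair and ribosomal proteins, so the counts of these groups are not independent evidence.

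In the other groups few members passed the test. Of 8 collagens 1 fell (Dapma7bEVm022975, -1.80 ± 0.67), of 15 glucose dehydrogenases 1 fell (Dapma7bEVm001801, -0.81 ± 0.25), and of 6 carbonic anhydrases 1 rose (Dapma7bEVm011147, 1.21 ± 0.35, from 53.4 to 117.2 CPM by the medians). Of 21 transcripts of fatty acid synthesis and elongation 1 rose, the ligase Dapma7bEVm027817, which is also a season model transcript. Of 36 transposable element proteins 2 fell and 1 rose. The single vitellogenin, the yolk precursor, had a log2 fold change of -0.80 that did not pass the test, and neither of the 2 clock and oxygen sensing transcripts passed.

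The study chose a set of season model transcripts on these same libraries, so their season difference is not independent evidence. Of the 56 measured, 17 rose and 20 fell at an adjusted p under 0.05 (edgeR), with the amino acid transporter Dapma7bEVm003672 as the largest rise and the uncharacterized Dapma7bEVm003078 as the largest fall (-1.21 ± 0.11, from 28.8 to 13.5 CPM by the medians), and 8 passed in the controls. Zwilch Dapma7bEVm001483, a component of the spindle checkpoint, fell from 13.4 CPM (3.57 to 22.6) to 8.87 CPM (3.18 to 12.7), with -0.84 ± 0.07 in stormwater and -0.83 ± 0.24 in controls. The long-chain-fatty-acid-CoA ligase Dapma7bEVm027817, which activates fatty acids, rose from 65.9 CPM (17.7 to 162) to 140.7 CPM (45.2 to 236), with 0.67 ± 0.10 in stormwater and 0.71 ± 0.22 in controls. For both, stormwater and controls differed by less than 1 SE of the control value, and both passed the test in stormwater.

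The text of the study names 3 transcripts with the ligase for their relation to offspring, and these rose with a narrow spread. Of them, Dapma7bEVm008798 and Dapma7bEVm012927 also belong to the season model transcripts, so their season difference is not independent evidence either. Dapma7bEVm013187, without a name, went from 4.80 CPM (2.06 to 11.2) to 13.6 CPM (5.45 to 20.5), with 1.27 ± 0.10 in stormwater and 1.34 ± 0.29 in controls. Dapma7bEVm008798, a homolog of a protein induced by tumor necrosis factor alpha in mammals, went from 10.9 CPM (4.32 to 19.4) to 24.6 CPM (17.4 to 36.7), with 0.98 ± 0.09 and 1.39 ± 0.25. Dapma7bEVm012927, uncharacterized, went from 7.91 CPM (1.19 to 31.6) to 21.7 CPM (12 to 50.4), with 1.15 ± 0.13 and 1.47 ± 0.24. In the controls these 3 had adjusted p-values of 0.036, 0.012 and 0.0071 (edgeR).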

How the data were processed

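Strand-specific messenger RNA libraries of pooled neonates were sequenced by the authors, who trimmed the reads with Trimmomatic and assigned them to reference transcripts with kallisto. The authors deposited the estimated counts (expected counts) of 29127 transcripts without normalization. kallisto divides reads among near-identical transcripts, so values of close family members are uncertain. No reference sequences were used here.

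Values that were not whole (31.3%) were rounded, and 26256 transcripts that varied in both the stormwater and the wetland libraries were kept. CPM are rounded counts scaled from the deposited library total to 1000000. Floors of 3 counts cover counting error only. Libraries of a point and season share 1 exposure, so p-values measure the spread between pools, which may be technical. No library was a copy of another of its own replicate group, since chi-square over its degrees of freedom was at least 20.6 in 225 replicate pairs. Pairs from different points or seasons were not compared in this way.

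Seasons were compared with edgeR 4.0.16 (TMM, quasi-likelihood test, Benjamini-Hochberg over all transcripts tested) in R 4.3.3, with sampling point as covariate. Points and site types were contrasts in 1 fit of group means, and controls and the interaction had fits of their own. The tests were run on simulated counts with known changes, drawn independently with the same spread setting for every transcript. That setting has no transcripts that are high or low together in a pool. It therefore does not check the p-values given here. Alternatives were DESeq2 1.42.0, median-ratio size factors, filterByExpr, no covariate, summed counts, the replicate number as a block, other thresholds, points and pseudocounts, F7Y as late summer, and left-out sets, points and replicates. The study used DESeq2. Early summer and wetland libraries entered no test.

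Named transcripts were, among DEGs seen at 7 or more points with a mean of at least 1 CPM, the 10 largest rises and falls, whatever their name and again among those with a functional name. Added to these were 5 transcripts that the text of the study names, 2 for season and the others for their relation to offspring and, in each list, the largest rise and fall with an adjusted p under 0.05 and a mean of at least 1 CPM. Members and lists were chosen with earlier results of these data known.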

Additional observations from a re-analysis of the deposited data

Results flagged for a closer look

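Single pools stood apart from the other pools of their point and season in 16 of 66 groups of values checked, where about 5% was taken as the share by chance. That share need not hold for Dapma7bEVm027084, which was at 0 in most spring pools, so that a few counts can stand apart. Its pool at 0.167 CPM lay under the floor of 3 counts. The values checked were log2(CPM + 1) of Dapma7bEVm005116, the largest fall, and of Dapma7bEVm027084, the largest rise, and the library totals, and other transcripts were not checked. For Dapma7bEVm005116 the lone low spring pools were at 0.771 CPM in BMP-37ST-Inflow, 0.515 CPM in BMP-TBNS1-Inflow and 1.38 CPM in PIPE-Cedar-Lake. The lone high late summer pools of Dapma7bEVm005116 were at 14.3 CPM in BMP-TBNS1-Inflow, 401 CPM in BMP-TBNS2-Inflow and 56.5 CPM in the second set of the controls. For Dapma7bEVm027084 the lone pools were at 0 CPM in late summer BMP-37ST-Outfall and, in spring, at 3.40 CPM in BMP-TBNS1-Inflow, 2.79 CPM in BMP-TBNS1-Outfall, 0.167 CPM in BMP-TBNS2-Inflow, 0.731 CPM in PIPE-SAP and 1.33 CPM in the controls. Library totals stood apart at 11209805 counts in late summer BMP-37ST-Outfall, 11885234 in spring BMP-37ST-Outfall, 11044217 in late summer PIPE-Crystal-Lake and 5040650 in spring PIPE-Crystal-Lake. The part of these pools in the season differences was not tested one by one.

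The season difference of 7 of the named transcripts differed by the kind of point at an adjusted p under 0.05 (edgeR F-test across pipe, inflow and outfall). The adjusted p-values were 0.0322 for Dapma7bEVm005116, 0.0319 for Kunitz-type Dapma7bEVm003446, 0.0287 for Dapma7bEVm028016, 0.0395 for Dapma7bEVm015212, 0.0425 for the fucosyltransferase Dapma7bEVm016232, 0.0364 for Dapma7bEVm004697 and 0.0385 for Dapma7bEVm001926. None of the 92 shared DEGs passed without the libraries of replicate number 3 (lowest adjusted p 0.124) or of number 1 (lowest 0.0649), and 1 passed without those of number 2.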

How the results depend on the processing

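DEGs made up 0.731% of the transcripts tested (28 higher, 93 lower) with filterByExpr and 6.21% (648 and 976) at an absolute log2 fold change over 1, against 1.2% (90 and 223). DEGs seen at most points numbered 20 (8 and 12) when all 9 points were required and 171 (44 higher) with log2(CPM + 0.1), against 92. DESeq2 gave 314 and 91, a fit without sampling point 389 and 85, and 91 and 84 of the 92 were shared. Leaving out a replicate number gave 258 to 379 DEGs (0.989% to 1.45%) and 76 to 99 seen at most points, and leaving out a point gave 275 to 352 DEGs.

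At the points, leaving out a replicate number gave 0 to 73 at BMP-37ST-Inflow, 29 to 189 at BMP-37ST-Outfall, 1 to 6 at BMP-TBNS1-Inflow, 23 to 98 at BMP-TBNS1-Outfall, 0 to 63 at BMP-TBNS2-Inflow, 40 to 288 at BMP-TBNS2-Outfall, 68 to 230 at PIPE-Cedar-Lake, 176 to 386 at PIPE-Crystal-Lake and 435 to 991 at PIPE-SAP. At BMP-TBNS2-Inflow filterByExpr gave 7. The season difference by site type gave 417 with filterByExpr and 1 to 674 without a replicate number. Control DEGs made up 0.969% of the transcripts tested with DESeq2, 0.314% with filterByExpr, 0.0518% without the second set and 0.209% to 0.525% without 1 library, against 0.429%. The interaction gave 0 throughout.

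Replicate numbers did not pair the samples. The deviations of 50 same-numbered pairs correlated at -0.61 to 0.63, 18 were over 0.1, and 9 libraries were closest to their own number. With the replicate block there were 327 DEGs (1.25%, 286 shared), 90 seen at most points (89 shared), 11 at BMP-TBNS2-Inflow and 62 (0.244%) in the controls. Of 1336 alternative values of the named transcripts, 79 no longer passed, all for members of the groups, and none reversed. Depth limits transcripts under the floor of 0.236 to 0.595 CPM.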

Other observations

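Early summer stormwater (44 libraries) entered no test of the report. For 64 of the 68 falls its median level was nearer to that of late summer than of spring. For 23 of the 24 rises it was nearer to spring. PIPE-SAP differed from the other points in this, since in its 5 early summer libraries 19 of the 24 rises were nearer to late summer. Those libraries carry the title numbers 97 to 101, the last before those of the late summer libraries. The 5 early summer controls, with title numbers from 57 to 91, were mixed, and the rises nearer to each season were not counted there. Their medians were 255 CPM for Dapma7bEVm001926 and 70.8 CPM for Dapma7bEVm004697, nearer to late summer stormwater. For Dapma7bEVm017280 and Dapma7bEVm027084 they were 9.78 and 0 CPM, nearer to spring stormwater. Levels like those of late summer were thus not particular to PIPE-SAP. The meaning of the order of title numbers was not tested.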
